A study of Arabidopsis thaliana with 8 samples.

Results

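Transcript signals of 10 Arabidopsis genes that act in ribosome biogenesis in the nucleolus were followed across 4 genotypes and 2 growth temperatures. The genes were given by name and AGI code: RH10 (AT5G60990), DOMINO1 (AT5G62440), YAO (AT4G05410), PES (AT5G14520), IMP4 (AT1G63780), NOP58 (AT3G05060), RH57 (AT3G09720), BRX1-1 (AT3G15460), BRX1-2 (AT1G52930) and PRH75 (AT5G62190). All 10 had a probe set on the array, among 13355 genes that could be named, and all 10 were among the 8448 genes kept after a filter on low signals. The filter asked that a gene exceed, on at least 1 array, the 40th percentile of that array's probe sets. Only DOMINO1 had more than 1 probe set.

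The nucleolus transcribes the precursor of the ribosomal RNAs and turns it into the small and large ribosomal subunits with the help of many assembly factors. The early small-subunit particle forms around U3, a small nucleolar RNA that guides the first cleavages, and RNA helicases of the DEAD-box family remodel these particles. Dividing and growing plant tissue uses these factors heavily, and several mutants in them have altered leaves.

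Shoot apices were collected from plants grown on soil for 15 days with 16 h of light and 8 h of dark, and their RNA was hybridised to ATH1 GeneChip arrays, which carry probe sets of short oligonucleotides. The genotypes were wild-type Col-0, the single mutants as2-1 and rh10-1, and the double mutant as2-1 rh10-1, each at 26°C and at 22°C, so that the 8 arrays were 8 different conditions with no replicate. The as2-1 allele affects Asymmetric Leaves2, a nuclear protein that represses genes of the lower leaf side, and rh10-1 affects RH10 itself. The study compared them because it asked how RH10 and AS2 act together in leaf polarity. As rh10-1 is a missense allele, the level of the RH10 transcript does not check the genotype labels, and AS2 had no probe set named here. How many plants entered each sample is not given in the sources used here.

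Signals were linear intensities that had been scaled array by array, with trimmed means from 198.1 to 198.4. Signals of all probe sets ranked alike on every pair of arrays, with Spearman correlations from 0.887 to 0.968, the lowest between the double mutant of 26°C and the rh10-1 array of 22°C. Of 10 markers of the shoot apex and leaf primordia, the defining stem cell gene CLV3 was the only one with a named probe set, and it was not above the 33.9th percentile on any array, so the labelled tissue could not be checked against its markers. In dissected tissue, fewer cells of a type and less RNA per cell cannot be told apart.

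The 10 genes shared a pattern of 2 parts. They were chosen with earlier results of these data known, so the counts that follow describe the pattern and do not test it. At 22°C the Col-0 array had the lowest signal of the 4 genotypes for all 10 genes, an order found in 26.9% of all genes kept. Both arrays with rh10-1 were above both without it for 9 genes, all except RH57, against 22.6% of all genes kept, and the rh10-1 array was the highest of all 8 for 7 genes against 16%. At 26°C both arrays with as2-1 were below both arrays without it for all 10 genes, an order found in 19% of all genes kept, and the double mutant was the lowest of the 4 for 7 genes against 31.2%. The double mutant was above Col-0 at 22°C and below Col-0 at 26°C for all 10 genes, which 25.4% of all genes kept also were.

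**Figure D1:**
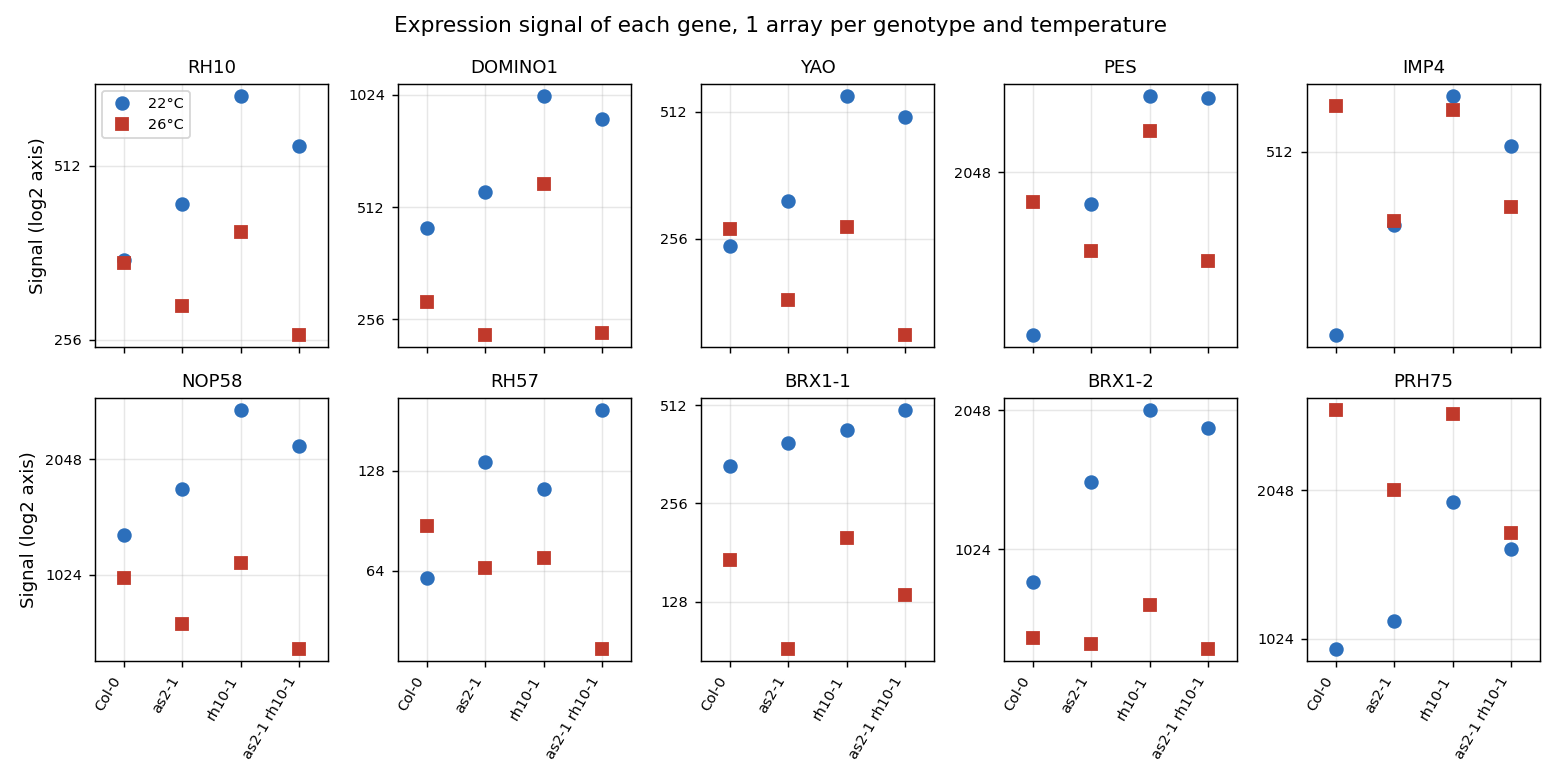
Signal (linear intensity on a log2 axis) of each of the 10 genes by genotype, with 1 point for each array and no error bar since no condition was replicated. Blue circles are 22°C and red squares are 26°C. Col-0 is the lowest blue circle in all 10 panels, and the 2 red squares that carry as2-1 lie below the other 2 in all 10 panels.

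Factors of the small subunit and of box C/D small nucleolar ribonucleoproteins come first. RH10 is a nucleolar DEAD-box helicase, the counterpart of human DDX47. The arrays at 22°C read 352 (Col-0), 439 (as2-1), 677 (rh10-1) and 554 (double mutant). Those at 26°C read 348, 293, 394 and 261 in the same order of genotypes. The Col-0 arrays of both temperatures were nearly equal, whereas the double mutant was the second highest array at 22°C and the lowest of all 8 at 26°C. IMP4 is a protein partner of U3 in the small-subunit particle. It read 271, 397, 622 and 522 at 22°C and 599.6, 402, 591 and 423 at 26°C in that order. Its Col-0 array was the lowest of all 8 at 22°C and the second highest of all 8 at 26°C.

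YAO is a nucleolar WD-repeat protein, related to a U3 protein of yeast and needed for the embryo sac. Its signals at 22°C were 247 (Col-0), 316 (as2-1), 559 (rh10-1) and 497 (double mutant). At 26°C they were 269.7, 183, 273 and 152, so that Col-0 and rh10-1 were alike and both arrays with as2-1 were lower. NOP58 is a core protein of the box C/D particles that methylate ribosomal RNA. Its signal was 1302, 1719, 2756 and 2224 in Col-0, as2-1, rh10-1 and the double mutant at 22°C and 1008, 762, 1102 and 656 at 26°C. For NOP58 all 4 arrays at 26°C lay below all 4 at 22°C, an order it shared only with BRX1-1 and BRX1-2 among the 10 genes and with 16.6% of all genes kept. RH57 is a DEAD-box helicase of ribosomal RNA processing whose lowest signal, in the double mutant at 26°C, was at the 38.3rd percentile of that array. It gave 61.0 (Col-0), 136 (as2-1), 113 (rh10-1) and 195 (double mutant) at 22°C and 87.4, 65.1, 69.8 and 37.2 at 26°C. RH57 was the 1 gene of the 10 in which as2-1 was above rh10-1 at 22°C.

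Factors of the large subunit followed a similar order. PES, the plant Pescadillo protein, belongs to a complex that matures the large-subunit ribosomal RNAs. The arrays at 22°C read 1321 (Col-0), 1883 (as2-1), 2519 (rh10-1) and 2503 (double mutant), and those at 26°C 1889.9, 1655, 2287 and 1615. Col-0 at 22°C was the lowest of the 8 arrays and both arrays with rh10-1 at 22°C were the highest, while the other arrays of the 2 temperatures overlapped.

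BRX1-1 and BRX1-2 are a pair of plant proteins related to yeast Brx1, an assembly factor of the large subunit. BRX1-1 had 333, 393, 431 and 496 in Col-0, as2-1, rh10-1 and the double mutant at 22°C and 172, 91.4, 200.2 and 134 at 26°C. BRX1-2 had 869.9, 1433, 2051 and 1872 at 22°C and 658, 638, 777 and 623 at 26°C. Neither gene had an array at 26°C as high as its lowest at 22°C. The genotypes spread differently in them, since at 22°C the highest array was 1.49 times the lowest for BRX1-1 and 2.36 times for BRX1-2, whereas at 26°C it was 2.19 and 1.25 times.

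PRH75 is a nucleolar DEAD-box helicase. It read 975 (Col-0), 1114 (as2-1), 1939.6 (rh10-1) and 1554 (double mutant) at 22°C and 2979, 2047, 2917 and 1677 at 26°C. It was the only one of the 10 genes whose signal was higher at 26°C than at 22°C in all 4 genotypes, by a narrow margin in the double mutant. DOMINO1 is a plant nucleolar protein of a small family, needed in the embryo, where mutants have an enlarged nucleolus. It gave 449, 561, 1018 and 884 at 22°C and 285, 233, 590.1 and 235 at 26°C in the same order of genotypes. In this probe set rh10-1 stood 1.5-fold or more above Col-0 at 26°C, which it did for no other of the 10 genes. Its dimmer probe set gave 417, 454, 686 and 590.3 at 22°C and 307, 138, 426 and 217 at 26°C, with a Pearson correlation of 0.94 to the first over the 8 arrays. At 26°C the as2-1 array was 1.15 below Col-0 on the log2 scale in the dimmer probe set and 0.30 below in the brighter, and the rh10-1 array was 0.47 above Col-0 in the dimmer and 1.05 above in the brighter, so the size of both differences depended on the probe set, and rh10-1 was not past 1.5-fold in the dimmer one.

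The comparison of each mutant with Col-0 asks how the mutations, alone and together, shift the transcripts at 1 temperature. With 1 array a condition these ratios have no error and no test, and the 3 mutants share the Col-0 array of their temperature. At 22°C rh10-1 had a median log2 ratio to Col-0 of 1.04 over the 10 genes, from 0.37 for BRX1-1 to 1.24 for BRX1-2, against -0.06 over all genes kept. All 10 genes were higher (45.2% of all genes kept), 9 of them 1.5-fold or more (13.7%), all except BRX1-1. The double mutant had a median of 0.93 over the 10 genes, from 0.57 for BRX1-1 to 1.67 for RH57, with all 10 higher (47% of all genes kept) and 9 past 1.5-fold (12.5%). The as2-1 array stood nearer to Col-0, with a median of 0.38, from 0.19 for PRH75 to 1.16 for RH57, and all 10 genes were higher (45.2% of all genes kept) with BRX1-2 and RH57 past 1.5-fold (7.20%).

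A comparison that leaves the Col-0 array out is that of as2-1 rh10-1 with as2-1. At 22°C all 10 genes were higher in the double mutant (51.8% of all genes kept), with log2 ratios from 0.33 for RH10 to 0.66 for DOMINO1 and YAO and a median of 0.40. The 2 genes past 1.5-fold were DOMINO1 and YAO, and 8.65% of all genes kept were past it. Against rh10-1 the double mutant at 22°C was lower for 8 genes (49% of all genes kept) and higher for RH57 and BRX1-1, with a median of -0.19. The double mutant was below the sum of both single mutants at 22°C for all 10 genes. The median departure from additivity was -0.52 on the log2 scale, from -0.85 for BRX1-2 to -0.04 for BRX1-1, against 0.05 over all genes kept. Of all genes kept 43.2% had a departure below that of BRX1-1. All 3 mutant arrays enter that departure against the same Col-0 array.

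**Figure D2:**
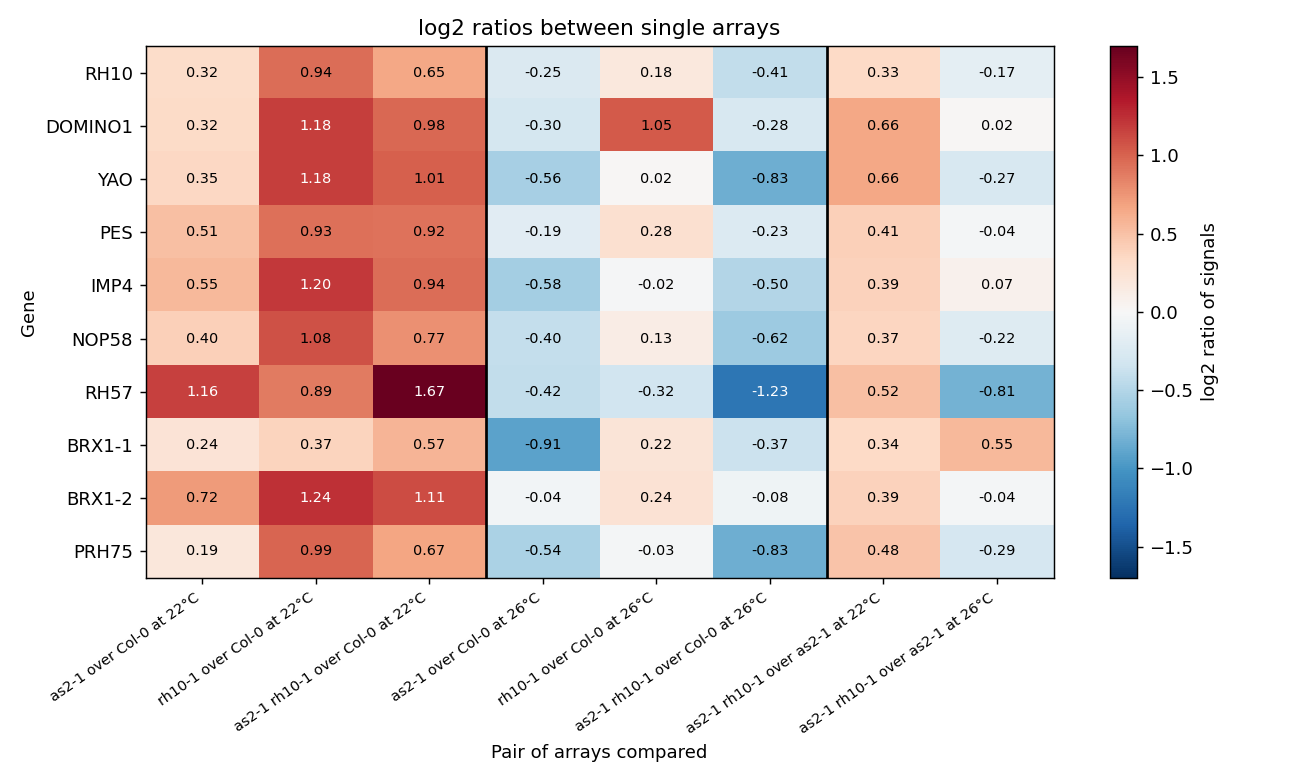
Difference in log2 signal between pairs of single arrays for each of the 10 genes (rows), with mutants against Col-0 at 22°C in the left 3 columns, at 26°C in the middle 3 columns, and as2-1 rh10-1 against as2-1 in the right 2. Red is higher and blue lower in the first-named genotype, and each cell prints its log2 ratio. All 30 ratios to Col-0 at 22°C are above 0, and all ratios to Col-0 of the 2 genotypes with as2-1 at 26°C are below 0.

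At 26°C the direction of the double mutant was the opposite. All 10 genes were lower than in Col-0 (51.6% of all genes kept). The median log2 ratio was -0.46, from -1.23 for RH57 to -0.08 for BRX1-2, and 4 genes (YAO, NOP58, RH57 and PRH75) were 1.5-fold or more lower against 18.3% of all genes kept. The as2-1 array alone was below Col-0 for all 10 genes (51.3% of all genes kept), with a median of -0.41, and BRX1-1 was the 1 gene past 1.5-fold lower (10%). With rh10-1 alone 7 of the 10 genes were higher than in Col-0 (51% of all genes kept) and 3 were lower, with a median of 0.15 and 1 gene, DOMINO1 in its brighter probe set, past 1.5-fold higher at 1.05 on the log2 scale against 11.3% of all genes kept. Against rh10-1, a comparison without Col-0, all 10 genes were lower in the double mutant (51.3% of all genes kept), with a median of -0.67 and 6 genes past 1.5-fold (14.3%). Adding rh10-1 to as2-1 at 26°C gave 3 genes higher and 7 lower (50.7% of all genes kept) with a median of -0.10, and RH57, at -0.81, was the gene past 1.5-fold lower against 14.6% of all genes kept. The median departure from additivity at 26°C was -0.30, against -0.01 over all genes kept. It ran from -1.03 for DOMINO1 to 0.33 for BRX1-1, with IMP4 (0.09) also above 0.

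The effect of each mutation was also estimated over both backgrounds by limma, which borrows the spread from all genes, in a fit with a separate effect at each temperature. The rh10-1 effect at 22°C was positive for all 10 genes, with a median of 0.73 on the log2 scale against -0.02 over all genes kept. It ran from 0.36 ± 0.20 (SE) for BRX1-1 to 0.92 ± 0.21 for YAO and 0.92 ± 0.26 for DOMINO1. After Benjamini-Hochberg adjustment over all genes kept, limma called 0 of the 10 genes, with adjusted p from 0.156 to 0.481, and 0.331% of all genes kept were called. Before adjustment 9 of the 10 genes had p under 0.05, all except BRX1-1, as had 13% of all genes kept. The RH10 transcript itself had an effect of 0.64 ± 0.21 with an adjusted p of 0.250 by limma. Leaving out 1 array at 22°C gave 0 calls and moved the estimate between 0.33 and 0.94 for RH10, 0.39 and 1.20 for IMP4, and 0.39 and 1.24 for BRX1-2, since the effect then rests on 1 pair of arrays. Leaving out any one of the 4 arrays at 26°C kept the estimates and gave 6 of the 10 genes called, but such fits had 1 residual degree of freedom and an infinite prior, and calls rose over all genes kept to between 4.92% and 5.15%.

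At 26°C the rh10-1 effect had a median of 0.02, with 6 genes above 0 and 4 below. The lowest was -0.57 ± 0.27 for RH57 and the highest 0.53 ± 0.26 for DOMINO1. By limma 0 of the 10 genes were called, 0 had an unadjusted p under 0.05 (16.1% of all genes kept had), and 2.44% of all genes kept were called. Without as2-1 or without the double mutant at this temperature, the DOMINO1 estimate rested on rh10-1 against Col-0 alone, at 1.05. That is 1 of the pairs of arrays in which its probe sets differed, with 0.47 in the dimmer one. The difference between the temperatures, the effect at 26°C minus that at 22°C, was negative for 9 of the 10 genes. Its median was -0.74, against -0.01 over all genes kept, from -1.27 ± 0.39 for RH57 to 0.03 ± 0.28 for BRX1-1. Again limma called 0 of the 10 genes (adjusted p from 0.160 to 0.978), while 6 had an unadjusted p under 0.05 (14.4% of all genes kept), and 0.580% of all genes kept were called. The difference was called for 2 genes, YAO and RH57, without Col-0 or without rh10-1 at 26°C, when 6.34% and 6.31% of all genes kept were called.

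At 26°C the median as2-1 effect over the 10 genes was further from 0 than the median rh10-1 effect of 0.02. The 2 effects were close for RH57, at -0.67 ± 0.27 for as2-1 and -0.57 ± 0.27 for rh10-1. The difference between the 2 effects was not tested. The as2-1 effect at 26°C was negative for all 10, with a median of -0.62 against -0.01 over all genes kept. It ran from -0.81 ± 0.26 for DOMINO1 to -0.18 ± 0.23 for BRX1-2. By limma 0 of the 10 genes were called (smallest adjusted p 0.278), 7 had an unadjusted p under 0.05 (11.4% of all genes kept), and 0.0355% of all genes kept were called. The DOMINO1 estimate moved between -1.33 and -0.30 when 1 array was left out. It was called at -1.33, without Col-0 or as2-1 at 26°C, when 4.23% of all genes kept were called, and was -0.30 without either array at 26°C that carries rh10-1. Those 2 values are as2-1 rh10-1 over rh10-1 and as2-1 over Col-0. In the dimmer DOMINO1 probe set these pairs gave -0.97 and -1.15, so the range also depended on the probe set. At 22°C the as2-1 effect had a median of 0.12 and 0 genes called by limma, against 0.0947% of all genes kept. RH57 stood apart there with 0.97 ± 0.27 (unadjusted p 0.00493, adjusted p 0.797) and was the only one of the 10 with an unadjusted p under 0.05, which 3.88% of all genes kept had. The difference of the as2-1 effects between temperatures was negative for all 10 genes with a median of -0.65, against -0.01 over all genes kept. The difference was called by limma for 0 of the 10, against 0.0118% of all genes kept, with 4 at an unadjusted p under 0.05 (5.93% of all genes kept). It was called for 2 of the 10 genes, RH57 and DOMINO1, without Col-0 or as2-1 at 26°C, when 2.28% and 2.21% of all genes kept were called.

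**Figure D3:**
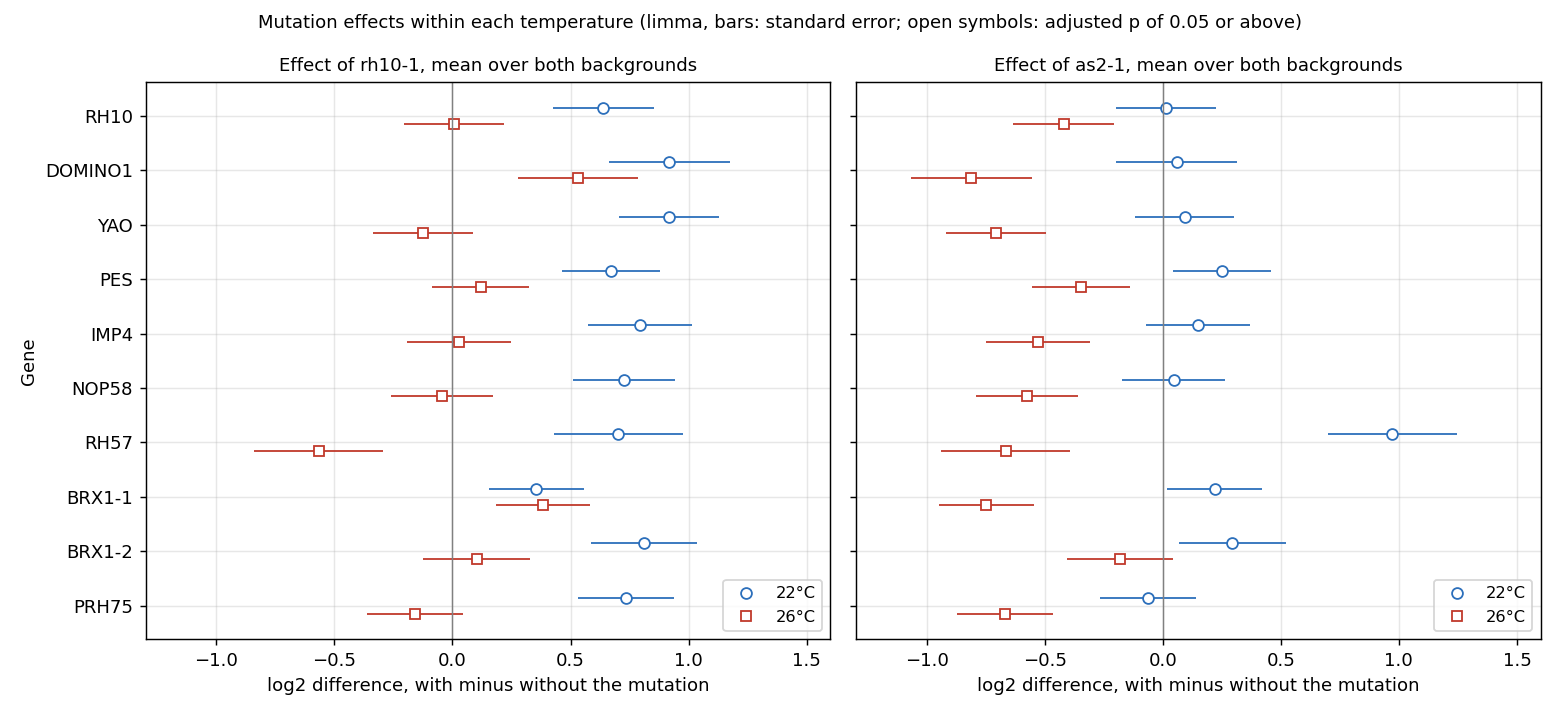
Effect of rh10-1 (left) and of as2-1 (right) on each of the 10 genes, as the log2 difference between arrays with and without the mutation averaged over both backgrounds, with its standard error from limma (8 arrays). At 22°C (blue circles) the rh10-1 effect is above 0 for all 10 genes, at 26°C (red squares) the as2-1 effect is below 0 for all 10, and every symbol is open because no adjusted p was under 0.05.

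Markers of dividing cells also differed between the arrays, and not alike at 26°C. Of 8 such markers 2 had a named probe set, the kinase gene AUR1 and PRL, which encodes a DNA replication licensing factor. At 22°C AUR1 gave 431, 418, 386 and 360.1 and PRL gave 692, 714, 675 and 513 in Col-0, as2-1, rh10-1 and the double mutant, so that both were lower in the arrays with rh10-1, in which the 10 genes were mostly higher. At 26°C AUR1 gave 87.3, 59.7, 174 and 182, and PRL gave 292, 194, 264 and 140.4. PRL, like the 10 genes, was lower in both arrays with as2-1. AUR1 was instead higher in both arrays with rh10-1 and highest in the double mutant, so the 2 markers disagreed. The part of cell division in these differences was not tested.

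The comparison of 26°C with 22°C asks how far the transcripts moved with temperature across all genotypes. The 4 arrays of each temperature were also the 2 array sets of the study, so temperature and array set cannot be told apart. With genotype as a block, limma called 7 of the 10 genes, 6 lower and 1 higher at 26°C, while 38.5% of all genes kept were called and 17% were called lower. Before adjustment 8 of the 10 had p under 0.05, as had 48.4% of all genes kept. BRX1-1 fell by 1.51 ± 0.22 on the log2 scale (SE, adjusted p 0.00108), NOP58 by 1.16 ± 0.22 (0.00340), DOMINO1 by 1.15 ± 0.21 (0.00333) and BRX1-2 by 1.14 ± 0.20 (0.00274). YAO fell by 0.85 ± 0.26 (0.0308), RH10 by 0.62 ± 0.19 (0.0307), and PRH75 rose by 0.80 ± 0.23 (0.0228). RH57 had -0.91 ± 0.39, IMP4 0.20 ± 0.23 and PES -0.11 ± 0.19, with adjusted p of 0.0965, 0.529 and 0.680. The calls of RH10, YAO and PRH75 were lost without an intensity trend in the variance model, which left 4 of the 10 genes called and 33.9% of all genes kept. Leaving out an array takes its genotype out of this comparison. The 3 calls were lost as well without as2-1 or rh10-1 of either temperature (4 called, with 24.7% to 26.1% of all genes kept), and those of RH10 and YAO without the double mutant of either temperature (5 called, with 32.5% and 32.6%). RH57 ranged from -1.38 to -0.41 and was called, at -1.38, without Col-0 of either temperature (8 called, with 38.4% of all genes kept).

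**Figure D4:**
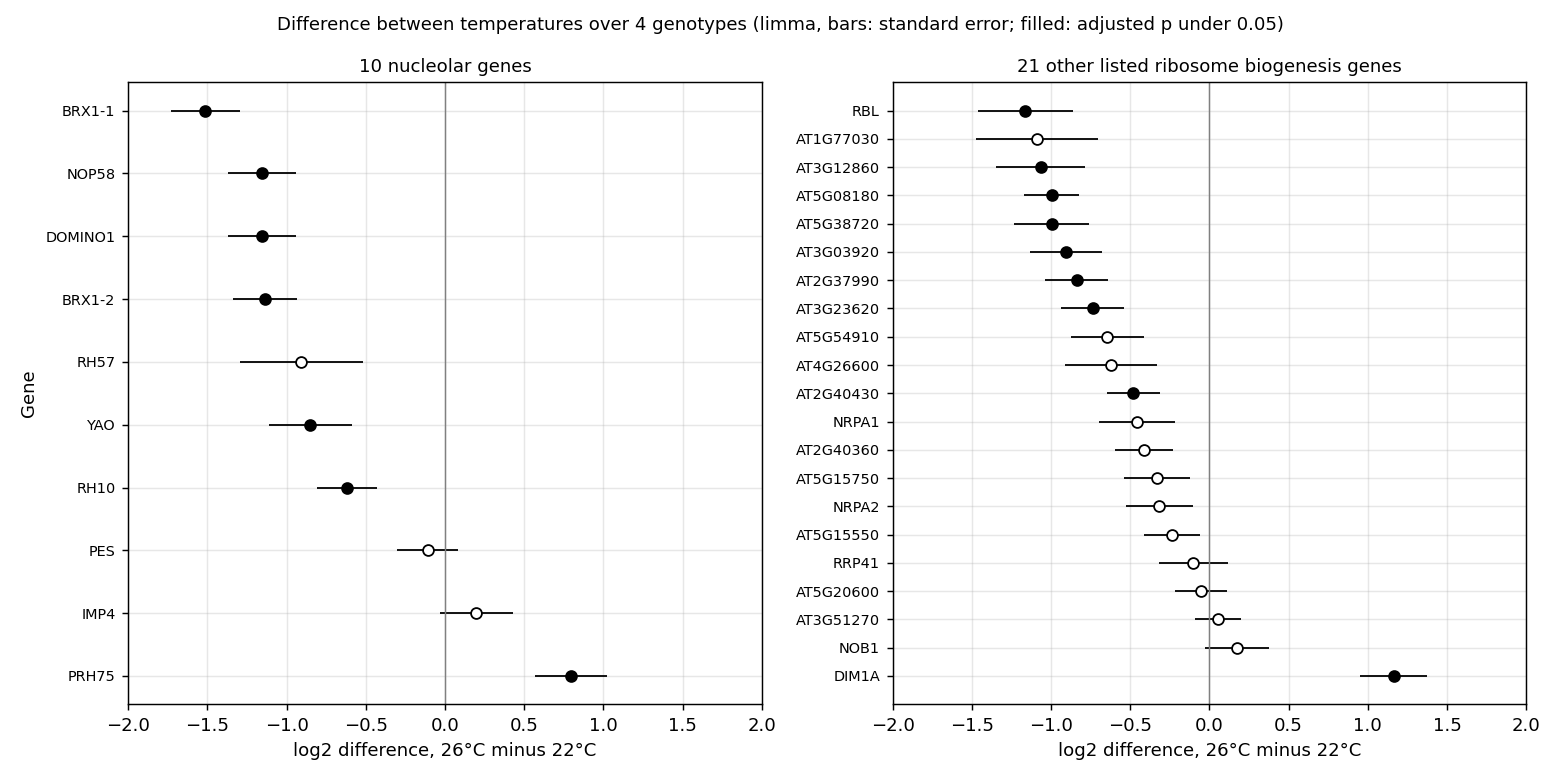
Difference between temperatures (log2, 26°C minus 22°C) with its standard error from limma over the 4 genotypes, for the 10 genes (left) and the 21 other listed ribosome biogenesis genes (right). Filled points had an adjusted p under 0.05. On the left 6 genes lie below 0 and PRH75 above 0 among the filled points, and BRX1-1 is the lowest at -1.51.

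The genotypes differed in how far their own arrays of the 2 temperatures stood apart. In Col-0 the 10 genes divided evenly, 5 higher and 5 lower at 26°C (46.2% of all genes kept were lower). Their median log2 ratio was 0.05, from -0.95 for BRX1-1 to 1.61 for PRH75. In as2-1 the median was -0.93 with 8 genes lower (45.7%), and in rh10-1 it was -0.78 with 9 lower (46%). In the double mutant it was -1.65 with 9 lower (47.9%), from -2.39 for RH57 to 0.11 for PRH75. The medians over all genes kept were 0.05 to 0.09 in the 4 genotypes. These are single pairs of arrays, and the tests of the differences between them are those of the rh10-1 and as2-1 effects between temperatures, which limma did not call. The summed signal of the 2 markers of dividing cells was 254 to 437 at 26°C and 873 to 1132 at 22°C, without overlap. Of 6 markers of expanded leaf, 3 had a named probe set, with a summed signal of 14389 to 17956 at 26°C and 14407 to 20224 at 22°C, and they went opposite ways. RCA, the activase of Rubisco, was at 3618 to 4897 at 26°C and 6936 to 9245 at 22°C without overlap, whereas the antenna gene LHCB4.2 was at 3581 to 5602 at 26°C and 1531 to 3378 at 22°C, also without overlap. LHCB4.1, another antenna gene, overlapped between temperatures, at 6698 to 8737 and 5594 to 7601. Such a lack of overlap was common. Of all genes kept, 16.6% had all 4 arrays at 26°C below all 4 at 22°C, and 21.9% had all 4 above. The part of these markers in the temperature difference was not tested.

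Other genes of the pathway came from a list of 54 ribosome biogenesis genes written from knowledge of the gene families. The list was also chosen with earlier results of these data known, so its counts describe these genes and do not test the pattern. Of the 54 genes 21 had a named probe set, and all 21 passed the filter. At 22°C Col-0 was the lowest of the 4 arrays for all 21 (26.9% of all genes kept). In rh10-1 18 were 1.5-fold or more higher (13.7% of all genes kept), with a median log2 ratio of 0.84. The largest ratios were 1.82 for AT3G12860 (115 in Col-0 and 406 in rh10-1), 1.56 for AT3G03920 (1105 and 3247) and 1.16 for AT5G15750 (407 and 913). The smallest were 0.57 for AT3G51270, 0.52 for AT5G38720 and 0.39 for AT5G08180. For the rh10-1 effect at 22°C over both backgrounds, limma called 1 of the 21, AT3G12860, at 1.61 with an adjusted p of 0.0202. Of all genes kept 0.331% were called. At 26°C both arrays with as2-1 were below both without it for 14 of the 21 (19% of all genes kept). Between temperatures limma called 9 of the 21, with 8 lower at 26°C and 1 higher. Of all genes kept 38.5% were called and 17% were called lower, so the number called was near the share of all genes. The lowest of these was RBL at -1.16, and the one higher was DIM1A, a methylase of small-subunit ribosomal RNA, at 1.16 (adjusted p 0.00315).

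Which of the 10 genes moved together was described by Pearson correlations of log2 signal over the 8 arrays, which are 8 different conditions that share labelling, scaling and the 2 array sets. Over the 45 pairs the median was 0.77. The highest was 0.99, between RH10 and YAO, and 38 pairs were positive. RH10 also followed NOP58 (0.97), DOMINO1 (0.95) and BRX1-2 (0.94). IMP4 and PRH75 stood apart from the rest, with median correlations of 0.35 and -0.12 to the other 9 genes, and they correlated with each other at 0.80. The lowest pair was BRX1-1 and PRH75, at -0.48.

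Most of that separation lay between the temperatures. With the mean of each temperature taken out of each gene, all 45 pairs were positive with a median of 0.85, and PRH75 correlated with YAO at 0.99 and with RH10 at 0.96. The median correlation with RH10 was then 0.95 over the other 9 genes and -0.04 over all genes kept outside the 10. A correlation above 0.9 with RH10 was then found for 2.58% of the latter. The highest pair was then RH10 and NOP58, at 0.99. RH57 and BRX1-1 became the least alike, at 0.49 with each other and medians of 0.68 and 0.69 to the other genes. Leaving out the 2 arrays farthest from the median of 1 gene of each pair gave a median of 0.70 before and 0.83 after the temperature means were removed.

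**Figure D5:**
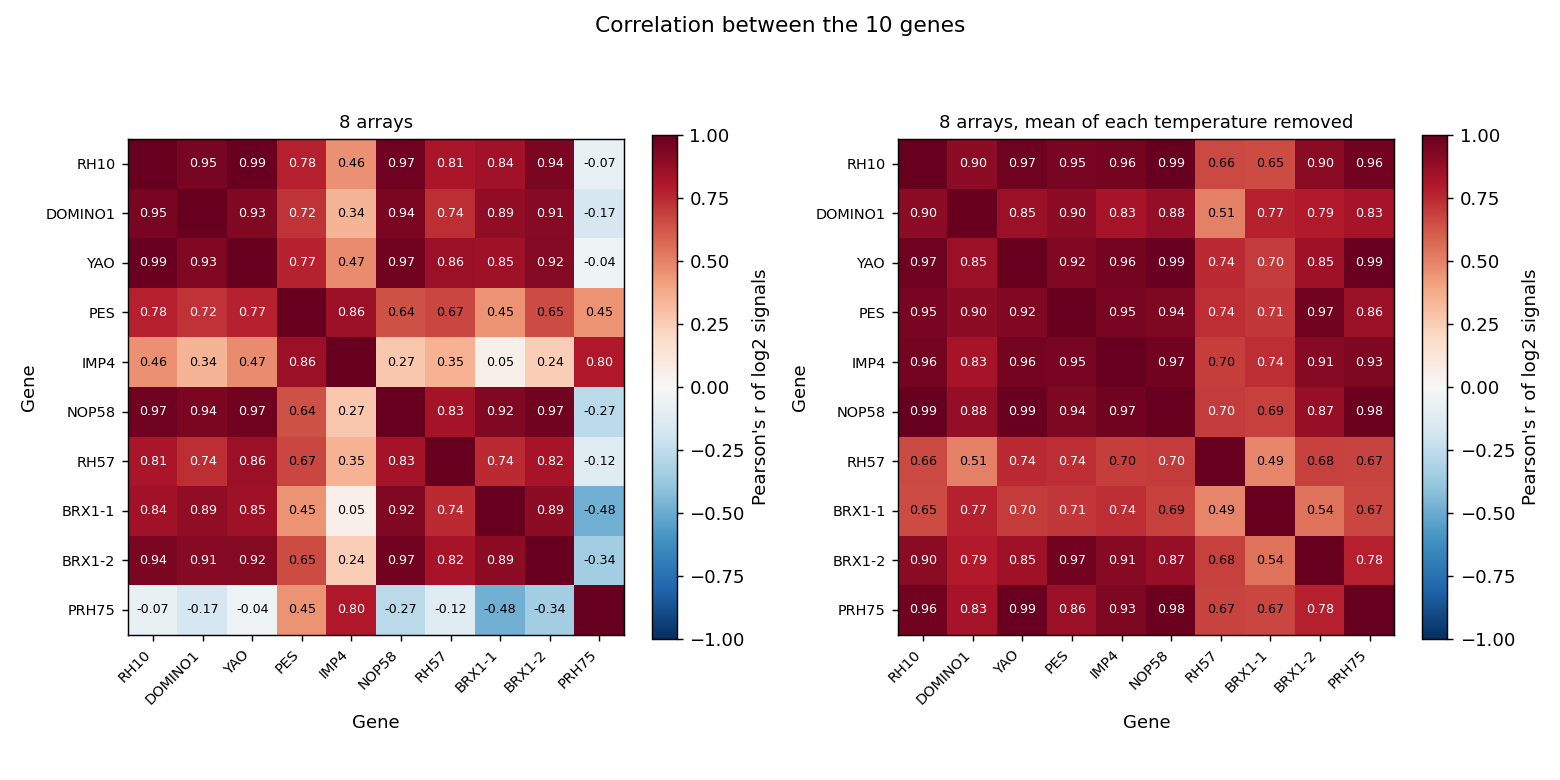
Pearson correlation of log2 signals between each pair of the 10 genes over the 8 arrays (left) and after the mean of each temperature was removed (right), printed in each cell. PRH75 and IMP4 are pale or blue against most genes on the left, and on the right all 45 pairs are positive, with RH57 and BRX1-1 the palest.

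Among all other genes kept, those most like RH10 over the 8 arrays were AT3G58660 and AT3G18600 (r = 0.996 and 0.995, with the same rank order as RH10), AT4G31810 (0.99), AT1G73230 (0.99) and AT5G66540 (0.98). AT3G18600 gave 622, 909, 1713 and 1304 in Col-0, as2-1, rh10-1 and the double mutant at 22°C and 527, 414, 739.8 and 362 at 26°C. Those most like the mean of the 10 genes were AT4G26230, AT3G58660, AT1G73230, AT4G12600 and AT4G28450, with r from 0.98 to 0.99. A correlation above 0.9 with RH10 was found for 303 of 8438 genes (3.59%) and for 8 of the 21 other ribosome biogenesis genes. The median correlation with RH10 was 0.88 over those 21 and -0.11 over all genes.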

How the data were processed

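The deposited values were expression signals of 22746 probe sets on 8 arrays. The authors labelled RNA of shoot apices with a 3′ IVT kit and computed each signal, a linear intensity, with the GCOS software, which scales arrays to one level. No further scaling was applied, 9 signals at 0 were set to 0.1, and log2 was taken. Probe sets were named through the platform annotation and a RefSeq table, which gave 1 gene to 13513 of them, several to 503 and none to 8730. A gene was read from its probe set with the highest mean log2 signal. The members and lists were chosen with earlier results of these data known. All 10 members are named, with the 5 genes most correlated with RH10 and with the members' mean, and the 3 highest and 3 lowest of the 21 other pathway genes by rh10-1 over Col-0 at 22°C. Others named (RBL, DIM1A) were chosen after their values were seen.

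limma 3.58.1 in R 4.3.3 was fitted to 8448 genes (eBayes with intensity trend, Benjamini-Hochberg adjustment, threshold 0.05), with genotype and temperature (3 residual degrees of freedom), or with as2-1, rh10-1 and their temperature terms (2). No condition was replicated, so the p-values do not measure a spread between replicates. The residual of the first fit holds differences between genotypes in the temperature effect. That of the second holds the as2-1 by rh10-1 terms, and both also hold the noise of single arrays. On simulated data of 8448 genes, limma called 93 of 100 genes whose temperature difference was 1 (log2), 63 of 100 for the rh10-1 effect at 22°C and 24 of 100 for its difference between temperatures. The simulated noise was independent with an assumed size, few genes changed, and the terms that fill the residual here were absent. These shares therefore need not hold for the real arrays. The number of arrays limits precision. Scaling, filters, probe sets, variance model, design and each array left out were varied. A planned search of promoter motifs was not run. Python 3.11.15, numpy 2.4.6, pandas 2.3.3 and matplotlib 3.10.9 were used.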

Additional observations from a re-analysis of the deposited data

Results flagged for a closer look

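In all 10 genes the as2-1 rh10-1 array was under Col-0 at 26°C and over it at 22°C, an opposite direction in the 2 temperatures that rests on 4 arrays and was not tested as such. In RH57 and BRX1-1 the arrays with as2-1 were lower in both backgrounds at 26°C and higher in both at 22°C. That order was found in 5.46% of all genes kept and in 8 of the 21 other ribosome biogenesis genes. The difference of the as2-1 effects, 26°C minus 22°C, was -1.64 for RH57 and -0.97 for BRX1-1 on the log2 scale, and limma did not call it (adjusted p 0.766 and 0.825). In RH57 and PRH75 the arrays with rh10-1 were lower in both backgrounds at 26°C and higher in both at 22°C, with differences of -1.27 and -0.90 (adjusted p 0.181 and 0.199 by limma, not called). This order was found in 7.97% of all genes kept and in 4 of the 21 other genes.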

How the results depend on the processing

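Between temperatures 7 of the 10 genes were called, 4 of 10 without an intensity trend and 4 to 8 of 10 when each array was left out in turn. Leaving out single arrays gave 0 to 6 genes called for the rh10-1 effect at 22°C, where 0 to 435 of all 8448 genes were called. It gave 0 to 1 for the effects of rh10-1 and of as2-1 at 26°C (7 to 600 and 0 to 357 of all genes) and 0 to 2 for the difference between temperatures of rh10-1 and of as2-1 (0 to 536 and 0 to 193). All such calls of the 10 genes came from fits without an array of 26°C, which had 1 residual degree of freedom and an infinite prior and called more of all genes. Against Col-0 at 26°C, as2-1 was past 1.5-fold for 1 gene, for 3 after quantile normalization and for 2 with averaged probe sets of a gene. The latter also left 1 of 2 genes past 1.5-fold for as2-1 rh10-1 over as2-1 at 22°C. With arrays centred on their medians, the median log2 ratio of rh10-1 to Col-0 at 22°C was 1.17, that of 26°C to 22°C in rh10-1 was -0.95, and in Col-0 it reversed to -0.0087. Of uncalled single-gene differences, that of PES between temperatures reversed to 0.062 after quantile normalization, and ranged from -0.32 to 0.064 when each array was left out, the highest without the double mutant of either temperature. That of IMP4 ranged from -0.12 to 0.36, the lowest without Col-0 of either temperature. The rh10-1 difference ranged from -0.90 to 0.13 for DOMINO1 and from -0.14 to 0.19 for BRX1-1, reversing without either 26°C array that carries as2-1, and for BRX1-1 also to -0.011 with median centring. Over the alternatives of the temperature difference, the rh10-1 effect at 22°C and its difference between temperatures, and the as2-1 effect at 26°C, single genes lost a call in 19 values and gained one in 32. In total 262 values for the 10 genes together and 579 for single genes of those 4 comparisons kept their direction and side of the threshold, or for counts stayed within 1.5 times. Of the other values for the 10 genes together, 12 were graded stronger, 5 weaker, 5 moved and 1 reversed. Among single genes 10 values reversed. Arrays were paired by genotype between temperatures, as the block of that fit.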
